A study of Mus musculus with 4 samples.

Results

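The replication-dependent histone genes are small, mostly intronless genes that lie in clusters and encode the core histones H2A, H2B, H3 and H4 and the linker histone H1. They were taken by symbol: Hist1 to Hist4 followed by the histone type, without pseudogene suffix. This gave 70 gene identifiers with 69 symbols (Hist2h2bb has 2 identifiers) of 47445 identifiers in each table. There were 6 genes of type H1, 20 of H2a, 19 of H2b, 12 of H3 and 13 of H4. In the authors' loci (build mm10), 56 lie on chromosome 13, 11 on chromosome 3, 2 on chromosome 11 and 1 on chromosome 6. Membership rests on names alone and uses no measured value, although the rule was set with earlier results of these data known.

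RNA came from C57BL/6N mouse embryos of normal morphology at the late 2-cell stage, in 2 control libraries and 2 libraries of embryos depleted of Uqcc3, a mitochondrial complex III assembly factor. Fertilized oocytes of 8-week-old females were injected at 8 hpi (the labels' own unit) with 5 µM siRNA targeting Uqcc3. The protocol has the controls injected likewise with a negative-control siRNA, but their treatment label reads "none" and the design text calls them normal embryos. Knockdown by siRNA lowers a transcript without removing the gene, and how many embryos went into each library is not stated in the sources used here. Replicates carry no number in the labels and were numbered in accession order. The endings of the sample titles differ between the groups, so if they mark a batch, batch and group cannot be told apart. The labels do not tie replicates to different mice or days, and p-values therefore cover only the spread of these 4 libraries, which may be technical.

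Replication-dependent histone genes are transcribed mainly in S phase, when new DNA has to be packed into nucleosomes. Their mRNAs are unusual among those of animals: they end just after a short stem-loop that the stem-loop binding protein SLBP recognises, in place of a poly(A) tail. Oocytes and early embryos store histone mRNA and protein for the first divisions, and oocytes use SLBP for this store. The libraries were primed with oligo(dT), so what is measured here is histone mRNA that carried a poly(A) tail or stretch, and the stem-loop-ended form is not expected to be primed.

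Libraries are listed throughout in the order control replicates 1 and 2, siRNA replicates 1 and 2. Uqcc3 itself stood, in controls, at 147 and 211 FPKM (fragments scaled to transcript length and to the size of the library), against 23.7 and 19.8 FPKM after the siRNA. The 4 libraries held 12202, 11818, 12073 and 9771 genes at 1 FPKM or more. All genes summed to 682974, 695428, 596011 and 436400 FPKM. The tables hold no read counts, but the authors' bounds imply a number of fragments behind each value. By that measure the histone cluster genes rested on 1023.4, 820.7, 585.6 and 324.1 fragments in all. A single fragment on Hist1h4c, the most abundant of them, was worth 0.218, 0.221, 0.344 and 0.303 FPKM. A value of 1 FPKM on a gene of that length therefore stands for few fragments.

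The 3' stem-loop is the hallmark of these mRNAs, and it is shown here because priming from a poly(A) tail selects transcripts that do not end at it. GENCODE M21 transcripts were used (GRCm38, the assembly that mm10 names). The most frequent run of 6 paired bases around a loop of 4 in the 100 bases after the stop codon was taken from the 70 genes themselves, and it is the first sequence printed here. A run within 3 mismatches of it was found in 44 of the 70 genes. All 44 lay within 100 bases of the stop. Among 19892 other protein-coding genes, 25 (0.126%) held such a run in the same window. The stem-loops are printed as DNA, 5′ to 3′, and capitals mark the letters that differ from the most frequent form.
Most frequent form (26 genes of types H1, H2a, H2b and H3, among them Hist1h2bj): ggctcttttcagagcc
Hist1h4c, Hist1h4d, Hist1h4n, Hist1h4h and 3 other H4 genes: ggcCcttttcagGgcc
Hist1h3f, Hist1h3c, Hist1h2bb, Hist1h2bk and 2 other genes: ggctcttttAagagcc
Hist1h4i and Hist2h4: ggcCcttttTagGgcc
Hist1h4a: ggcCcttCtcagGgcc
Hist1h3g: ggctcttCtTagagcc
Hist2h2ac: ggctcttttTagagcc
The 10 H4 genes with a stem-loop shared a changed stem pair that no stem-loop of the other types had. In Hist1h4c the stem-loop lies at chr13:23698089-23698104 on the minus strand. The longest annotated transcript of Hist1h4c runs 454 bases past it, while the authors' locus for this gene (chr13:23698060-23698454) ends 29 bases past it. Of the 26 genes without a stem-loop, 3 are not annotated as protein-coding, 17 have a model that ends less than 75 bases after the stop and 6 have a longer model with no such run. Hist1h2bc is among those 6.

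At least 1 FPKM in at least 1 library was reached by 24 of the 44 genes with an annotated stem-loop and by 8 of the 26 without one. Among the 44, the 25 whose model runs over 50 bases past the stem-loop included 12 such genes, and the 19 whose model ends sooner included 12 as well. These shares are descriptions, and the models also differ in how much sequence they have in common with other genes: a median of 41.5% of 100-base runs with a stem-loop and 63.2% without.

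The promoters carry short elements that are typical of histone genes, and 3 of them are shown because the genes behind them had different profiles over the libraries. The sequences are the 150 bases before the RefSeq gene start (GRCm38.p6), 5′ to 3′ on the strand of the gene. Capitals mark the CCAAT box, the TATA box (searched as TATAAA) and the octamer ATTTGCAT on either strand. On the other strand the octamer reads ATGCAAAT and the first of these boxes reads ATTGG.
Hist1h4c, chr13:23698459-23698608, minus strand: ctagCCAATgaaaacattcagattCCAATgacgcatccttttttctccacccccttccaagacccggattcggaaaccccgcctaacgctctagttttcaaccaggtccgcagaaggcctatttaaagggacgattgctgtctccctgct
Hist1h2aa, chr13:23934287-23934436, plus strand: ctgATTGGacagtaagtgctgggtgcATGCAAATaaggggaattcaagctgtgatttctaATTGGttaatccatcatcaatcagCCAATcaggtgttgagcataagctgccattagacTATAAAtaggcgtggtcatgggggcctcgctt
Hist1h2bj, chr13:22043048-22043197, plus strand: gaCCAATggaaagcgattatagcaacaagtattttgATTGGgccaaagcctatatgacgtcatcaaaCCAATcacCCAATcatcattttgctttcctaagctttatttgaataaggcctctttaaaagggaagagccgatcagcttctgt
RefSeq promoters were matched by symbol for 62 of the 70 gene identifiers, and 250 bases before the start were searched. Both Hist2h2bb identifiers matched the same promoter, which holds the octamer and CCAAT but not TATAAA. That promoter is counted under each identifier in the H2b numbers and in the 62. The octamer stood in 7 of 17 H2a and 8 of 17 H2b promoters and in none of the 6 H1, 10 H3 and 12 H4 promoters, against 1.81% of the promoters of 27025 genes. CCAAT stood in all 6 H1, 17 H2a and 17 H2b promoters, in 8 of 10 H3 and in 3 of 12 H4 promoters, against 37.5% of all genes. TATAAA stood in 4 of 6 H1, 7 of 17 H2a, 8 of 17 H2b, 4 of 10 H3 and 6 of 12 H4 promoters, against 14.3%. Many H2a and H2b genes are divergent neighbours whose windows overlap, so their promoters are not independent. A match is a string of letters and not a shown binding site.

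Histone cluster genes held a small part of the summed FPKM in all 4 libraries, and H4 made up most of what remained in siRNA replicate 2. Histone mRNA that ends at the stem-loop is not expected in these values, so they do not give its part of the RNA. The 70 genes summed to 150.0 and 125.7 FPKM in control libraries and to 139.5 and 66.8 FPKM with siRNA. These sums were 0.0220%, 0.0181%, 0.0234% and 0.0153% of all FPKM. The low library was siRNA replicate 2 on both measures, and siRNA replicate 1 had the highest share. With n = 2 libraries a group, the mean sum was 137.9 FPKM (SD 17.2) in controls and 103.1 FPKM (SD 51.4) with siRNA. The groups overlapped.

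The types had different profiles over the libraries. H4 genes summed to 60.5 and 55.4 FPKM in control libraries and to 87.1 and 54.8 FPKM with siRNA. H2b genes summed to 37.8 and 40.7 FPKM in control libraries and to 27.5 and 2.50 FPKM with siRNA. H2a genes summed to 33.3 and 9.64 FPKM in control libraries and to 9.60 and 0.831 FPKM with siRNA. For H2b both siRNA libraries lay below both controls. For H2a siRNA replicate 1 was nearly at the level of control replicate 2, and the controls themselves differed by 1.79 on the log2 scale. H3 genes summed to 5.24 and 13.9 FPKM in control libraries and to 9.11 and 0.492 FPKM with siRNA. H1 genes summed to 13.1 and 6.02 FPKM in control libraries and to 6.21 and 8.21 FPKM with siRNA. For H3 and H1 the groups overlapped. As differences of mean log2 sums, siRNA minus control, the types stood at 0.26 (H4), -0.32 (H1), -2.01 (H3), -2.24 (H2b) and -2.67 (H2a). For H2a, H2b and H3 most of this came from siRNA replicate 2. Against the control mean, siRNA replicate 1 alone gave 0.59, -0.52, 0.09, -0.52 and -0.90 in the same order, and siRNA replicate 2 alone gave -0.08, -0.11, -4.12, -3.97 and -4.43. With TPM, median-of-ratios and quantile scaling the H1 difference turned to 0.12, 0.07 and 0.05, and the H4 difference rose to 0.69, 0.65 and 0.63. Those of H3, H2b and H2a stayed negative. Fewer cells and less RNA per cell cannot be told apart in such bulk values.

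**Figure D1:**
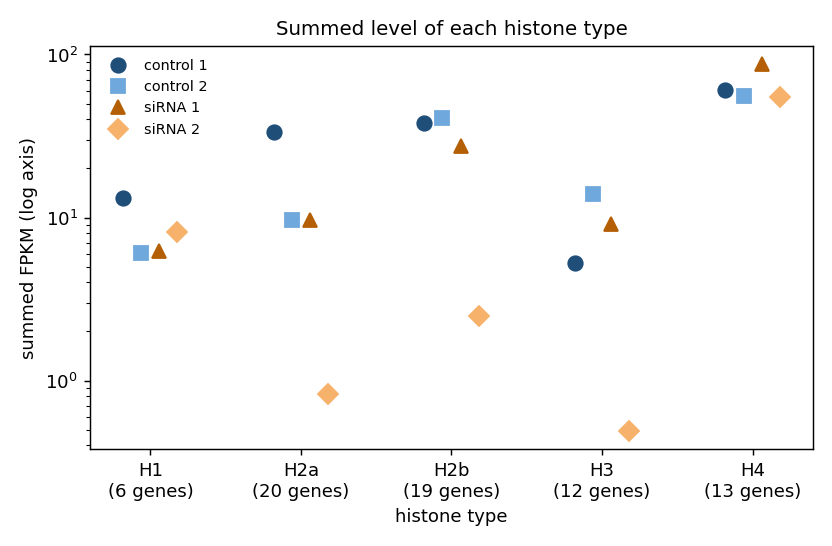
FPKM summed over the genes of each histone type (log axis), with 1 symbol per library. In siRNA replicate 2 the H2a, H2b and H3 sums lie at 0.831, 2.50 and 0.492 FPKM, below the other 3 libraries, while its H1 and H4 sums (8.21 and 54.8 FPKM) lie near those of the others.

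As a share of the histone sum, H4 stood at 40.3% and 44.0% in the controls and at 62.4% and 82.0% with siRNA. Both siRNA libraries were above both controls. H2b held 25.2% and 32.4% in the controls and 19.7% and 3.74% with siRNA, and H2a held 22.2% and 7.67% in the controls and 6.88% and 1.24% with siRNA. Hist1h4c alone held 22.6% and 31.7% of the histone sum in the controls and 34.1% and 70.4% with siRNA. Without Hist1h4c the histone sum was 116.2, 85.9, 92.0 and 19.8 FPKM, and the H4 sum was 26.7, 15.5, 39.6 and 7.74 FPKM. The H4 difference then became -0.22 on the log2 scale, a check added after the values were seen.

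Most of the genes were low or listed at 0. Of the 70, 24 were listed at 0 in all 4 libraries, 32 reached 1 FPKM in at least 1 library and 8 were above 0 in all 4. Only Hist1h4c, Hist1h4i and Hist1h1a stood at 1 FPKM or more in every library. Control replicates 1 and 2 and siRNA replicate 1 held 22, 22 and 21 genes at 1 FPKM or more, and siRNA replicate 2 held 5. The genes listed at 0 numbered 37, 38, 42 and 58. The 2 controls shared 15 genes at 1 FPKM or more, 68.2% of each list, and control replicate 1 shared 16 with siRNA replicate 1, 72.7% of its own list and 76.2% of the other. The controls thus shared no more with each other than control replicate 1 did with siRNA replicate 1. In siRNA replicate 2 many genes of other kinds are also listed at 0, so a 0 there is given as listed and not as absence.

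**Figure D2:**
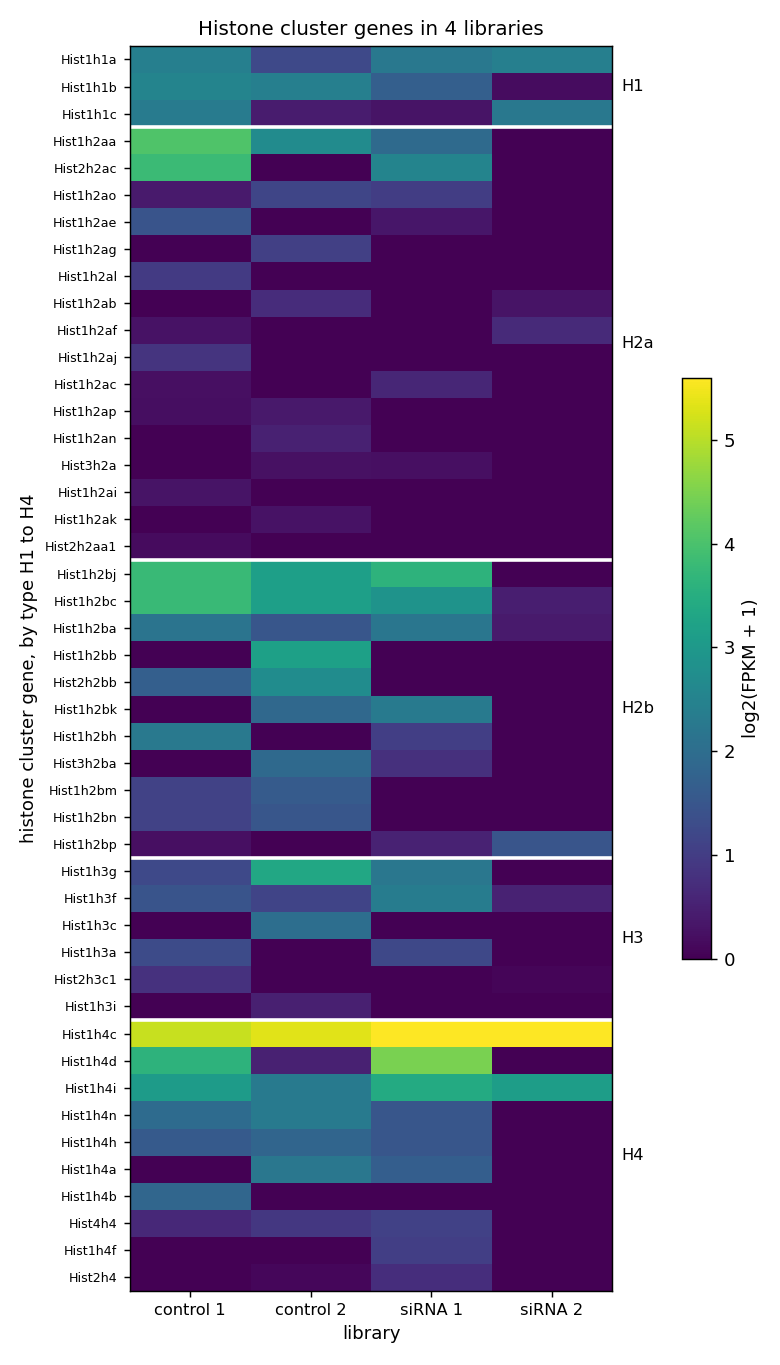
log2(FPKM + 1) of the 46 histone cluster genes above 0 in at least 1 library (vertical axis, by type and then by mean FPKM) in the 4 libraries (horizontal axis). The 3 libraries on the left hold 22, 22 and 21 genes at 1 FPKM or more, and the column of siRNA replicate 2 holds 5, with Hist1h4c as its highest value.

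Among the H4 genes, which encode the least variable core histone, Hist1h4c stood above all others in every library. It was at 33.8 and 39.8 FPKM in control libraries and at 47.5 and 47.0 FPKM with siRNA. These rested on 155, 179.9, 138 and 155 implied fragments. Both siRNA values lay above both controls. The authors' bounds overlapped, from 33.9 to 45.8 FPKM in control replicate 2 and from 39.4 to 55.6 FPKM in siRNA replicate 1. The log2 fold change was 0.36 (SE 0.65), and limma gave an adjusted p of 0.909. Hist1h4i stood at 7.42 and 3.93 FPKM in control libraries and at 9.80 and 7.74 FPKM with siRNA. Again both siRNA values lay above both controls (log2 fold change 0.59, SE 0.93, limma adjusted p = 0.887). Its bounds overlapped as well, from 5.72 to 9.12 FPKM in control replicate 1 and from 5.67 to 9.81 FPKM in siRNA replicate 2. These 2 genes were the only tested histone cluster genes with both siRNA libraries above both controls.

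Hist1h4d varied most within groups. It stood at 11.2 and 0.434 FPKM in control libraries and at 21.2 and 0 FPKM with siRNA, so each group held 1 high and 1 low library. Its log2 fold change was 0.17 (SE 1.67, limma adjusted p = 0.989), and it had no 100-base run in common with any other gene. Hist1h4n was at 2.88 and 3.93 FPKM in control libraries and at 1.81 and 0 FPKM with siRNA. Hist1h4h was at 2.01 and 2.57 FPKM in control libraries and at 1.84 and 0 FPKM with siRNA. In both genes the siRNA libraries lay below the controls, although siRNA replicate 1 was close to the lower control for Hist1h4h. The remaining H4 genes stayed under 4 FPKM, and Hist1h4j, Hist1h4k and Hist1h4m were listed at 0 throughout.

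**Figure D3:**
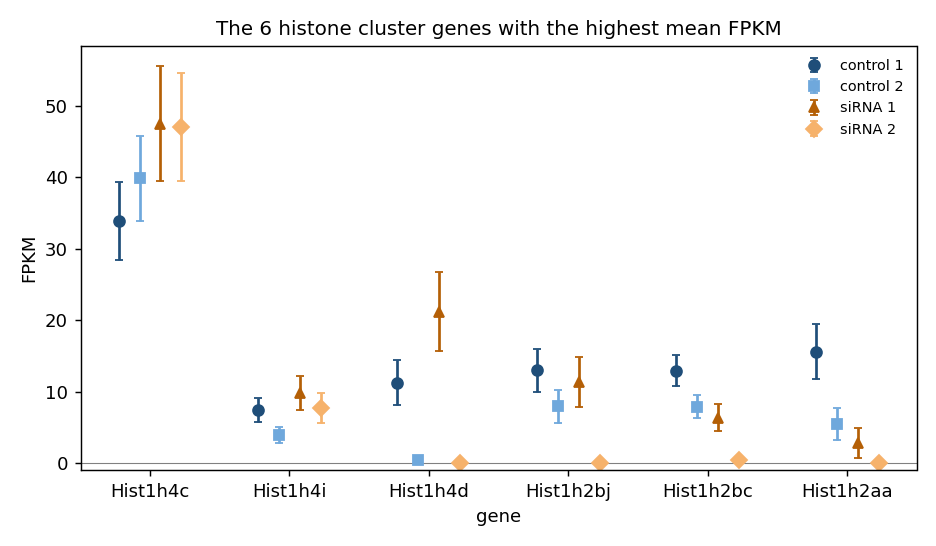
FPKM (linear axis) of the 6 histone cluster genes with the highest mean over the 4 libraries, 1 symbol per library, with the authors' lower and upper bounds as bars. Hist1h4c and Hist1h4i keep their level in siRNA replicate 2 (47.0 and 7.74 FPKM), while Hist1h4d, Hist1h2bj and Hist1h2aa are listed at 0 there and Hist1h2bc is at 0.394 FPKM.

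Among the H2b genes the highest were Hist1h2bj and Hist1h2bc. Hist1h2bj stood at 12.96 and 7.97 FPKM in control libraries and at 11.4 and 0 FPKM with siRNA, so siRNA replicate 1 lay between the controls and only siRNA replicate 2 was outside them. Its log2 fold change was -1.67 (SE 1.32, limma adjusted p = 0.784). Setting siRNA replicate 2 alone against the controls, it was the only 1 of the 23 tested histone cluster genes that passed in limma (log2 fold change -3.48, adjusted p = 0.0453), against 11.9% of all genes tested. That fit compares 1 library with 2 and takes the lone library to vary like the controls. Without siRNA replicate 2 its log2 fold change was 0.14. Hist1h2bc stood at 12.9 and 7.91 FPKM in control libraries and at 6.38 and 0.394 FPKM with siRNA, below both controls in each (log2 fold change -1.80, SE 1.13, limma adjusted p = 0.750). Without siRNA replicate 2 its log2 fold change was -0.59. The annotated Hist1h2bc model has 742 bases after the stop and no stem-loop in it.

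Hist1h2ba encodes the testis and oocyte form of H2B. It stood at 3.42 and 1.81 FPKM in control libraries and at 3.60 and 0.317 FPKM with siRNA, and the groups overlapped (log2 fold change -0.52, SE 0.98, limma adjusted p = 0.912). The Hist2h2bb identifier that is not annotated as protein-coding was listed at 0 in every library. The protein-coding Hist2h2bb was at 2.22 and 5.604 FPKM in control libraries and listed at 0 in both siRNA libraries. It was the 1 histone cluster gene with an unadjusted p under 0.05 in limma (0.0223, adjusted 0.745), and all of its 100-base runs occur in other genes as well, including 2 annotated genes whose exons overlap it. Hist1h2bm was at 1.15 and 2.06 FPKM and Hist1h2bn at 1.15 and 1.83 FPKM in the controls, and both were listed at 0 with siRNA. These 3 genes passed the filter on low values through the controls alone, so their direction was fixed by the filter. Hist1h2bk was at 0 and 2.704 FPKM in control libraries and at 3.90 and 0 FPKM with siRNA, so each group again held 1 library at 0 (log2 fold change 0.20, SE 1.04, limma adjusted p = 0.974). Hist1h2bb was at 8.11 FPKM in control replicate 2 and listed at 0 in the other 3 libraries.

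Among the H2a genes, Hist1h2aa had the highest mean. It encodes the testis and oocyte partner of Hist1h2ba and is its divergent neighbour on chromosome 13 (chr13:23934462-23934851 and chr13:23933773-23934156). Hist1h2aa stood at 15.6 and 5.50 FPKM in control libraries and at 2.81 and 0 FPKM with siRNA. Both siRNA libraries lay below both controls (log2 fold change -2.41, SE 1.11, limma unadjusted p = 0.0631, adjusted p = 0.745), and without siRNA replicate 2 the log2 fold change was -1.45. Its neighbour did not share this order: Hist1h2ba in siRNA replicate 1 was at 3.60 FPKM, above both controls. The pair therefore differed in siRNA replicate 1 and was low or listed at 0 in siRNA replicate 2.

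Hist2h2ac, from the cluster on chromosome 3, stood at 13.1 and 0 FPKM in control libraries and at 4.80 and 0 FPKM with siRNA. Each group held 1 library at 0, so the spread within groups exceeded the difference between them (log2 fold change -0.64, SE 1.44, limma adjusted p = 0.929). Hist1h2ao was at 0.328 and 1.26 FPKM in control libraries and at 1.03 and 0 FPKM with siRNA, and Hist1h2ae at 1.74 and 0 FPKM and at 0.273 and 0 FPKM. The other 16 H2a genes stayed at or below 1.08 FPKM in every library. As a type, H2a genes had the highest median share of sequence in common with other genes, but Hist1h2aa and Hist2h2ac share only 10.3% and 16.9% of their 100-base runs.

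Of the H3 genes, Hist1h3g stood at 1.36 and 9.26 FPKM in control libraries and at 3.67 and 0 FPKM with siRNA. Hist1h3f stood at 1.74 and 1.22 FPKM in control libraries and at 4.13 and 0.443 FPKM with siRNA. In both, siRNA replicate 2 was the lowest library and the groups overlapped (limma adjusted p = 0.818 for Hist1h3g and 0.981 for Hist1h3f). Hist1h3a was at 1.42 and 0 FPKM in control libraries and at 1.32 and 0 FPKM with siRNA, nearly the same pair of values in each group. Hist1h3c was at 3.05 FPKM in control replicate 2 and listed at 0 elsewhere. Of the 12 H3 genes, 6 were listed at 0 throughout.

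Of the 3 linker histone genes detected, 2 stood at several FPKM in siRNA replicate 2. Hist1h1a stood at 4.34 and 1.34 FPKM in control libraries and at 3.75 and 4.36 FPKM with siRNA, so the lowest value was a control (log2 fold change 0.51, SE 0.98, limma adjusted p = 0.913). Hist1h1c was at 4.05 and 0.349 FPKM in control libraries and at 0.228 and 3.71 FPKM with siRNA, with 1 high and 1 low library in each group (log2 fold change -0.12, SE 1.05, limma adjusted p = 0.988). Hist1h1b was at 4.72 and 4.33 FPKM in control libraries and at 2.24 and 0.130 FPKM with siRNA. It was the 1 H1 gene with both siRNA libraries below both controls (log2 fold change -1.53, SE 0.96, limma adjusted p = 0.750). Hist1h1d, Hist1h1e and the testis gene Hist1h1t were listed at 0 in all 4 libraries. Linker histone genes share little sequence with others, with a median of 2.55% of 100-base runs in common, so their values are less exposed to near-identical copies.

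In the fit over all genes, no histone cluster gene reached an adjusted p under 0.05 with limma. Of the 70, 23 had at least 1 FPKM in at least 2 libraries and were tested, among 12390 genes. Their adjusted p ran from 0.745 to 0.998, and 1 of the 23 (4.35%) had an unadjusted p under 0.05, against 5.96% of all genes tested. Of all genes tested 0% passed (smallest adjusted p = 0.564), with 738 at an unadjusted p under 0.05. An exact two-sided permutation test of 2 libraries against 2 cannot go below 0.333. Both siRNA libraries lay below both controls for 8 of the 23, against 30.0% of all genes tested, and above both for 2, against 8.60%. Over all 70 the counts were 9 and 3, against 9.67% and 4.26% of 47443 genes without the filter. With a filter at 5 FPKM they were 2 and 2 of 6 tested, against 34.8% and 6.95% of all genes. The 8 members below with the reported filter were 4 H2b genes, 2 H4 genes, 1 H2a gene and 1 H1 gene, a share close to that of all genes. Of the 4 H2b genes, 3 (Hist2h2bb, Hist1h2bm and Hist1h2bn) passed the filter through the controls alone, so they could only lie below. Hist2h2bb is also the gene with the unadjusted p under 0.05. With TPM, median-of-ratios and quantile scaling the members below numbered 7, 6 and 7 against 21.4%, 19.8% and 20.1% of all genes, and those above 2, 3 and 3 against 13.2%, 16.01% and 15.3%.

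The median log2 fold change was -0.61 over the 23 tested genes and -0.39 over all genes tested. With TPM, median-of-ratios and quantile scaling the median of all genes moved to -0.08, -0.09 and 0.01, and that of the 23 to -0.58, -0.41 and -0.28. In siRNA replicate 1 against the controls the medians were 0.14 and -0.30, and in siRNA replicate 2 they were -1.36 and -0.57. Histone genes are short, and short genes in general were low in siRNA replicate 2: the 2222 genes tested with a longest transcript of at most 1000 bases had medians of -0.32 in siRNA replicate 1 and -1.48 in siRNA replicate 2. Of 12 histone cluster genes at 1 FPKM or more in both controls and siRNA replicate 1, 9 (75%) were under 1 FPKM in siRNA replicate 2. The same share was 21.3% of 9166 genes of all kinds, 40.2% of 1565 genes of at most 1000 bases and 60.7% of 840 genes that were both of at most 1000 bases and at a mean of at most 20 FPKM in the other libraries. The part of length and level in the low histone values of siRNA replicate 2 was not tested. Taking siRNA replicate 1 alone, 9 of the 23 tested genes lay below both controls, against 48.3% of all genes tested, and 6 above, against 20.6%. Taking siRNA replicate 2 alone, 14 lay below, against 50.6%, and 3 above, against 32.0%.

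Near-identical copies limit what single histone genes can show. Of the 100-base runs of their annotated transcripts inside the authors' loci, the genes listed at 0 in all 4 libraries shared a median of 60.7% with transcripts of other genes, those above 0 somewhere 39.4%, and those above 0 in all 4 libraries 21.2%. By type the medians were 77.8% (H2a), 54.9% (H3), 42.1% (H2b), 31.8% (H4) and 2.55% (H1). Hist1h4c shared 34.1%. These shares count runs in annotated genes that overlap the same locus as well as runs in copies elsewhere. Of the 70 genes, 26 overlap exons of another annotated gene, every H2a gene among them. The H2a median is therefore not a measure of copies alone. The sources used here do not say whether the counting used strand. Values of single H2a, H2b and H3 genes can therefore include or lack fragments of a copy or of an overlapping gene. The same holds for part of the H4 genes, which shared 80.7% in Hist1h4n and 0.0% in Hist1h4d.

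The genes that make and end histone mRNA ranged from Snrpe, with a mean of 907.9 FPKM, to Cpsf1, with a mean of 0.6895 FPKM. Of 25 genes for 3' end processing of histone pre-mRNA, 22 were tested and none passed in limma. Both siRNA libraries lay below both controls for 5 and above for 2, against 30.0% and 8.60% of all genes tested. Of the 2 above, Zfp473 (0.913, 0, 1.67 and 4.36 FPKM) passed the filter through the siRNA libraries alone, so it could only lie above. The median log2 fold change was -0.19, and 1 gene had an unadjusted p under 0.05. Slbp, which encodes the protein that binds the stem-loop, stood at 256.9 and 436.2 FPKM in control libraries and at 188.6 and 108.2 FPKM with siRNA. Both siRNA libraries lay below both controls (log2 fold change -1.22, SE 0.63, limma adjusted p = 0.745). Lsm10, a subunit of the U7 snRNP that cleaves histone pre-mRNA, stood at 253.7 and 187.7 FPKM in control libraries and at 211.0 and 13.4 FPKM with siRNA. Its low value was confined to siRNA replicate 2. Its partner Lsm11 was listed at 0 in both controls and stood at 0.751 and 5.68 FPKM with siRNA.

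Npat and Casp8ap2, which act at the histone locus bodies of the nucleus, did not separate the groups. Npat, a co-activator of histone transcription, stood at 16.5 and 9.26 FPKM in control libraries and at 9.14 and 27.6 FPKM with siRNA. Casp8ap2 stood at 351.8 and 168.4 FPKM in control libraries and at 327.3 and 109.0 FPKM with siRNA. The most abundant genes of the processing list were Snrpe, Snrpg and Ncbp2, core snRNP and cap-binding components. Snrpe stood at 799.2 and 678.0 FPKM in control libraries and at 623.4 and 1531 FPKM with siRNA. Snrpg stood at 531.2 and 258.1 FPKM and at 400.3 and 245.3 FPKM, and Ncbp2 at 392.2 and 273.5 FPKM and at 195.8 and 319.5 FPKM. In all 3 the groups overlapped.

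Of 14 symbols listed for histone mRNA decay factors, 12 were measured and 10 were tested. The others, Tut7 and Tut4, are further names of Zcchc6 and Zcchc11, which were measured. None passed in limma and none had an unadjusted p under 0.05, and 3 lay below and 1 above both controls in both siRNA libraries, against 30.0% and 8.60% of all genes tested (median log2 fold change -0.04). Mif4gd, which binds SLBP, stood at 15.8 and 22.9 FPKM in control libraries and at 5.16 and 2.87 FPKM with siRNA (log2 fold change -2.04, SE 0.89, limma unadjusted p = 0.0518, adjusted p = 0.745). Dcp2, a decapping enzyme, stood at 52.6 and 88.0 FPKM and at 77.3 and 84.3 FPKM. Lsm1, a subunit of the ring that binds the 3' end of decaying mRNA, stood at 51.5 and 46.8 FPKM and at 70.4 and 18.0 FPKM. Neither separated the groups.

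The replacement histone variants are encoded outside the replication-dependent set, mostly by genes with introns and ordinary poly(A) tails, and are made through the whole cell cycle. The stem-loop-ended mRNA of the cluster genes is not expected to be primed by oligo(dT), so FPKM sums do not compare the whole mRNA of both sets. In the primed part the variants were far more abundant per length than the cluster genes. Their list summed to 4528 and 5153 FPKM in control libraries and to 2733 and 1241 FPKM with siRNA. Of 19 genes 11 were tested and none passed in limma, 5 had an unadjusted p under 0.05 and a lower mean with siRNA (5.96% of all genes tested had such a p in either direction). In 8 both siRNA libraries lay below both controls, with none above, against 30.0% and 8.60% of all genes tested. The median log2 fold change was -1.33, against -0.39 for all genes tested. H3f3b, which encodes the variant H3.3, stood at 2630 and 3246 FPKM in control libraries and at 1975 and 366.1 FPKM with siRNA (log2 fold change -1.78, SE 0.86, limma adjusted p = 0.745). H3f3a, which encodes the same protein, stood at 235.1 and 255.2 FPKM and at 114.0 and 61.8 FPKM.

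H2afv, an H2A.Z gene, stood at 943.4 and 890.0 FPKM in control libraries and at 291.1 and 429.5 FPKM with siRNA (log2 fold change -1.37, SE 0.58, limma unadjusted p = 0.0479, adjusted p = 0.745). Cenpa, the H3 variant of centromeres, stood at 383.9 and 394.0 FPKM and at 155.9 and 151.6 FPKM (log2 fold change -1.33, SE 0.57, limma unadjusted p = 0.0472, adjusted p = 0.745). Over the alternative settings, leaving out each library among them, the log2 fold change ran from -1.35 to -0.77 for Cenpa and from -1.65 to -0.81 for H2afv. Without siRNA replicate 2 the log2 fold changes were -1.65 for H2afv, -1.31 for Cenpa, -1.10 for H3f3a, -0.56 for H3f3b, -0.32 for H2afz and -0.31 for H1foo. H2afz stood at 83.2 and 87.8 FPKM and at 68.1 and 19.96 FPKM. H1foo, the linker histone of the oocyte, stood at 33.6 and 56.1 FPKM in control libraries and at 34.9 and 121.5 FPKM with siRNA, with siRNA replicate 1 between the controls and siRNA replicate 2 above them.

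**Figure D4:**
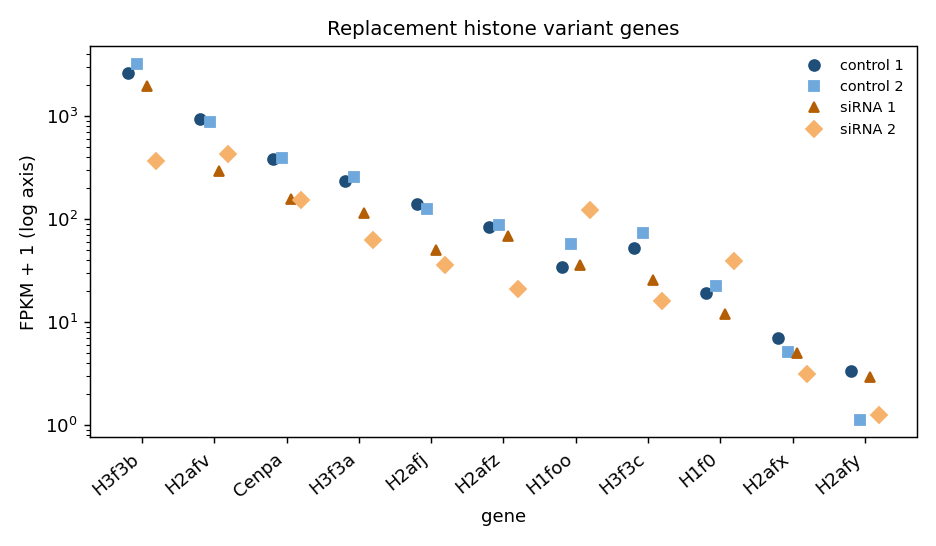
FPKM + 1 (log axis) of the 11 replacement histone variant genes tested, ordered by mean FPKM, with 1 symbol per library. In 8 of the 11 both siRNA libraries lie below both controls, and H1foo in siRNA replicate 2 (121.5 FPKM) lies above all other libraries.

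Chaperones that deliver new histones to replicating DNA and regulators of S phase did not pass in limma either. Of the 17 chaperone genes all were tested, 5 lay below and 3 above both controls in both siRNA libraries (30.0% and 8.60% of all genes tested). In limma 1 had an unadjusted p under 0.05 (median log2 fold change of the list -0.18). That gene, Ipo4, was higher with siRNA (18.5, 1.12, 27.9 and 112.3 FPKM). Rbbp7 stood at 257.3 and 493.8 FPKM in control libraries and at 218.2 and 127.6 FPKM with siRNA, and Asf1b at 268.0 and 239.4 FPKM and at 162.1 and 68.6 FPKM. In both genes the siRNA libraries lay below the controls. Nasp stood at 77.7 and 117.9 FPKM and at 48.9 and 105.6 FPKM, with overlap. Of 22 symbols listed for S phase regulators, among which Mizf and Hinfp name the same gene, 19 were tested. Of these, 4 lay below and 2 above both controls (again beside 30.0% and 8.60%), and 1 had an unadjusted p under 0.05 in limma (median log2 fold change 0.15). That gene, Pou2f1 (0.239, 0.109, 7.19 and 22.4 FPKM), is also 1 of the 2 above. It passed the filter on low values through the siRNA libraries alone, so its direction was fixed by the filter. Ccna2, the cyclin of S phase and G2, stood at 239.7 and 182.7 FPKM and at 120.9 and 443.1 FPKM, with the siRNA libraries on either side of the controls. Ccne1, the cyclin of S phase entry, stood at 150.6 and 145.2 FPKM and at 55.1 and 137.1 FPKM. With siRNA replicate 2 alone against the controls, Lsm10, H3f3b, H3f3a, H2afz, Asf1b and Uqcc3 passed in limma with log2 fold changes of -3.93, -2.99, -1.97, -2.04, -1.87 and -3.09, as did 1477 of the 12390 genes tested (11.9%), 1199 of them lower (9.68%).

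The labelled stage was checked against marker lists. The 13 measured late 2-cell markers summed to 1446 and 1949 FPKM in control libraries and to 1097 and 566.4 FPKM with siRNA, and in 7 of 11 tested both siRNA libraries lay below both controls, against 30.0% of all genes tested. The highest by mean was Obox6, at 600.3 and 559.6 FPKM in control libraries and at 284.9 and 138.0 FPKM with siRNA. The list was not uniform: in siRNA replicate 2 Zscan4d was at 6.71 FPKM, below all other libraries, and Usp17lc at 36.5 FPKM, above them. The 9 oocyte transcripts summed to 11860 and 14120 FPKM and to 10020 and 4183 FPKM. Most of this was Dppa3, at 10130, 12090, 8371 and 3004 FPKM. This list was not uniform either: Gdf9, Nlrp5 and Zar1 were highest in siRNA replicate 2, at 176.8, 28.6 and 15.4 FPKM. Of the 9, 3 lay below and 2 above both controls in both siRNA libraries, against 30.0% and 8.60% of all genes tested (median log2 fold change -0.01). The late 2-cell and oocyte sums were both lowest in siRNA replicate 2, as were the H2a, H2b and H3 sums. Their part in the histone values was not tested. The 9 cumulus and granulosa markers summed to between 3.47 and 14.1 FPKM in controls and between 1.26 and 7.78 FPKM with siRNA, with Fshr, Amh and Star at 0 in all 4. The 10 sperm and testis markers summed to between 28.7 and 37.2 FPKM in controls and between 22.6 and 47.1 FPKM with siRNA, mostly from Ldhc and Pgk2. Prm2 was at 5.34, 0.108, 12.3 and 0 FPKM and Tnp1 at 0, 2.00, 5.01 and 0 FPKM, while Akap4 and Prm3 were at 0 in all 4. The 8 blood markers summed to between 33.5 and 34.5 FPKM in controls and between 9.17 and 29.5 FPKM with siRNA. The highest were Hba-a1 (9.26, 18.8, 9.76 and 0 FPKM), Hba-a2, Cd52 and Cd74, while Hbb-bs and Tyrobp were at 0 in all 4. The 7 blastocyst markers summed to between 3.36 and 16.3 FPKM in controls and between 11.8 and 16.8 FPKM with siRNA. Gata4 was at 3.28, 6.01, 4.74 and 13.7 FPKM, and Krt18 reached 10.2 FPKM in control replicate 2. Eomes was at 0.0204, 0.0573, 1.697 and 3.04 FPKM (limma unadjusted p = 0.0425). It passed the filter on low values through the siRNA libraries alone, so its direction was fixed by the filter. Cdx2, Sox17 and Krt8 were at 0 in all 4.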

How the data were processed

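Each library has 1 deposited table in FPKM, the unit the authors' program computed, and per the file headers each FPKM has a low and a high confidence bound. The tools named in the submitters' processing notes are Cufflinks 2.2.1, Cuffdiff 2.2.1, STAR 2.7.3a, Trim Galore 0.6.5 and SAMtools 1.7, with mm10 as build. The sources used here do not give the annotation release. FPKM was summed where an identifier had several rows (50 identifiers). A failed estimate kept 2 genes out of the tests, and 7 histone values under 0.0001 FPKM were taken as 0. The fragments implied by a value are the square of 2 times FPKM over its distance to the high bound. They describe counting error alone, as fragments copied by amplification are not separate molecules.

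Tests used limma 3.58.1 in R 4.3.3, two-sided, on log2(FPKM + 1), with the prior variance trended on abundance. They covered the 12390 genes that reached 1 FPKM in 2 or more of the 4 libraries, with Benjamini-Hochberg adjustment over these and 0.05 as the threshold. A fold change is the siRNA minus control difference on this scale and understates the change of low genes. The fit was run on simulated data only as a check of its fold change estimates. How often it finds true changes with so few libraries is not given here. FPKM is scaled within a library and not between libraries.

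The genes, lists and rules were chosen with earlier results of these data known. Named with values are, in each type, the 4 genes with the highest mean FPKM, the testis-type genes, and the 3 tested genes per direction with the smallest unadjusted p. Of each list of histone-related genes, marker lists apart, the 3 genes with the highest mean FPKM and a fixed set (Slbp, Npat, Lsm10, Lsm11, Casp8ap2, H2afz, H3f3a, H3f3b and H1foo) are named. Hist1h2bn, Hist1h2bk, Hist1h4h, Hist1h4a, Pou2f1, Zfp473, Ipo4 and all marker genes named were chosen after their values were seen. Stem-loops and 100-base runs were read from GENCODE M21 transcripts. Of the 70 genes, 68 matched by identifier and 2 by symbol.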

Additional observations from a re-analysis of the deposited data

How the results depend on the processing

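No paired analysis was possible because the labels carry no replicate numbers. Genes passing limma over all genes numbered 0 under every alternative but 2. With no filter on low values 1470 passed, and 1 of them was a histone cluster gene (Hist2h2aa1, at 0.125 FPKM in 1 library). That fit includes genes at 0 in all libraries, over which limma warned that its variance estimates were unreliable. Leaving those genes out, an alternative chosen after seeing the data, gave 0, with 844 at an unadjusted p under 0.05. Leaving out each library gave 0 to 1477 genes passing and 0 to 1 histone cluster genes. The highest values came without siRNA replicate 1 (278 higher, 1199 lower, Hist1h2bj among them). Histone cluster genes with both siRNA libraries below both controls numbered 2 of 6 tested with a filter at 5 FPKM (34.8% of all genes). Of 23 tested, leaving out control replicate 1 gave 11 (41.9% of all genes) and leaving out control replicate 2 gave 13 (44.2%). Without siRNA replicate 1 there were 14 (50.6%), and without siRNA replicate 2 there were 9 (48.3%). The log2 difference of the H4 sum was 0.69 after TPM rescaling, 0.65 with median-of-ratios scaling, 0.63 with quantile normalization, and -0.22 without Hist1h4c. With each library left out it ranged from -0.08 to 0.59, that of H1 from -0.88 to 0.25, of H3 from -4.12 to 0.09, of H2a from -4.43 to -0.90 and of H2b from -3.97 to -0.52. The H1 difference was 0.12, 0.07 and 0.05 under the 3 scalings.

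Some single genes changed direction. In the order TPM, median-of-ratios and quantile, the log2 fold change was 0.17, 0.084 and 0.022 for Hist1h1c, 0.032, 0.12 and 0.25 for Hist1h3a, 0.19, 0.15 and 0.34 for Snrpg, 0.046, 0.0013 and 0.23 for Ncbp2 and 0.068, 0.025 and 0.090 for Casp8ap2. Nasp was at 0.022 with TPM and 0.10 with quantile, and Hist1h2ba at 0.25 with quantile. With a pseudocount of 0.1 Hist1h3f was at -0.038 and Hist1h4d at -0.75. With each library left out the ranges were -0.082 to 1.11 for Hist1h1a, -1.09 to 0.85 for Hist1h1c, -2.55 to 1.27 for Hist2h2ac, -0.79 to 0.23 for Hist1h2ao, -3.48 to 0.14 for Hist1h2bj, -1.42 to 0.38 for Hist1h2ba, -0.77 to 1.06 for Hist1h3f, -0.67 to 0.61 for Hist1h3a and -2.07 to 2.40 for Hist1h4d. They were -0.79 to 1.08 for Ccna2, -0.40 to 1.09 for Npat, -0.12 to 0.61 for Dcp2, -1.40 to 0.51 for Lsm1, -0.24 to 1.06 for Snrpe, -0.76 to 0.28 for Snrpg, -1.15 to 0.43 for Casp8ap2, -0.31 to 1.46 for H1foo and -0.95 to 0.14 for Nasp. The cause of these turns was not tested. No single histone cluster gene passed in the main fit, which has 2 libraries a group, and Uqcc3 itself did not pass there (log2 fold change -2.97, limma adjusted p = 0.745). In siRNA replicate 2 many commonly expressed genes are listed at 0, and most histone values rest on few implied fragments. The part of group size, zeros and depth in this outcome was not tested.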
